A study of Zea mays with 24 samples.

Results

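SR45a (Zm00001d047847) is an SR-like splicing regulator of maize, and all of its listed splicing events were collected from leaf RNA-seq tables by gene identifier. This gave 23 events in both tables together, out of 31439 events in 9725 genes. Of these, 14 were listed at V4, 22 at V5, and 13 at both stages. The gene was selected on measured ψ: the study singled it out from comparisons of a higher maximum daily temperature (MDT) with 31°C within a stage, so the values across MDTs are a description and carry no test, and only the difference between the stages at one MDT was tested.

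The plants were of the W22 inbred line and grew in controlled chambers whose day temperature peaked at an MDT of 31°C in the reference and at 37°C, 35°C or 33°C in the warmer regimes, each run in duplicate chambers. The middle of the newest fully expanded leaf was sampled at the V4 stage, 20 days after germination (DAG), and at the V5 stage, 27 DAG. Each of the 8 groups had 3 libraries, 24 in all. The labels do not name the chamber of a library. The design text describes a replicate as made from several plants while the extraction protocol describes 1 sample from each of 3 plants, so the p-values measure only the spread between these libraries. Stage and age cannot be told apart, and markers of leaf cell types were not checked.

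SR proteins bind pre-mRNA through RNA recognition motifs and recruit the spliceosome through stretches rich in arginine and serine. SR-like proteins of the SR45a kind carry such stretches on both sides of the recognition motif, and in Arabidopsis the SR45a transcript is itself alternatively spliced under heat and strong light. In the tables an event pairs an inclusion form with a skipping form: a longer exon from an alternative 5′ (A5SS) or 3′ (A3SS) splice site, an included exon (ES), a retained intron (IR) or one of a pair of mutually exclusive exons (MXE). The inclusion level ψ is the percentage of the inclusion form after its reads and the skipping reads are each divided by the length in which they can fall.

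The reads summed over all events ranged from 1782688 to 2818842 per V4 library and from 2662780 to 3378578 per V5 library. Skipping reads of well-read events varied between replicates by 2.15 to 6.29 times the variance of counting in 22 replicate pairs and by 16.0 to 17.4 times in the 2 pairs with V4 37°C replicate 3. That library stands apart from its group, and the main values that rest on it are also given without it. Counting error is only a part of the error of each value.

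The events of SR45a lay on the plus strand of chromosome 9, between positions 143197216 and 143199012 of the B73 RefGen_V4 assembly, to which the W22 reads were aligned. By type, 8 were A5SS, 6 ES, 3 A3SS, 3 IR and 3 MXE. They were not independent. The 14 V4 events used 9 distinct sets of skipping reads and the 22 V5 events used 12, and 7 events had a value in all 24 libraries. Of the A5SS events, 6 describe the exon that begins at 143197757. It ended at 143197906 (the short donor, an exon of 150 bases), at 143197883 or, further downstream, at 143198113 or 143198116, before joining the exon at 143198239 to 143198302. The other 2 A5SS events describe an exon listed from 143198094, and the donor at 143198114 is listed only for that exon and as the end of 1 ES exon. The donors at 143198113, 143198114 and 143198116 are called the long donors here. The extension between the short donor and the first long donor, 143197907 to 143198113, is 207 bases long, a multiple of 3.

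**Figure D1:**
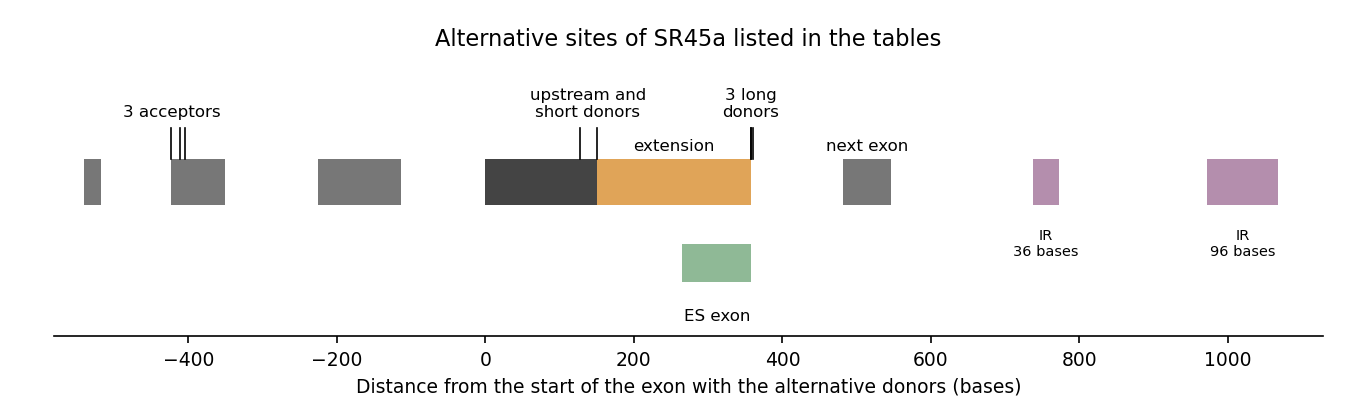
Map of the alternative stretches of SR45a, drawn to scale as distance in bases from the start of the exon with the alternative donors. Grey boxes are exons, orange the 207-base extension, green the 93-base ES exon within the same region, purple the 2 stretches listed as IR in both tables, and vertical ticks the alternative splice sites. The 3 long donors lie within 3 bases of each other.

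The event with the most reads among those seen in every library was the choice between the donor at 143198113 (inclusion) and the short donor at 143197906 (skipping), called the lead event here. Reads for the short donor were more numerous at higher MDTs, above all at 35°C in V5 leaves. Per 1000000 reads of all events, they were 2.88 times those at 31°C at V4 35°C, 3.06 times at V5 33°C and 7.58 times at V5 35°C, where inclusion reads were 1.02, 0.943 and 0.893 times. At V4 33°C the short donor was at 1.33 times and the inclusion reads were at 0.736 times. The whole event was then at 0.822 times, but at 0.959 times by size factors and 0.961 times by skipping reads. How far each form moved there thus depends on the scaling. ψ of the lead event was lower at each higher MDT than at 31°C, lowest at 35°C, and lower at V5 than at V4 at each MDT.

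At V4 and 31°C the 3 libraries gave ψ of 68.6%, 70.0% and 74.5%, from 188, 153 and 131 skipping reads and 981, 853 and 914 inclusion reads. The inclusion reads of the latter 2 libraries were recovered from ψ and the skipping reads and could lie between 851 and 855 and between 913 and 916. All 3 values were above those of every other group. At 33°C the values were 55.0%, 58.2% and 59.8%, from 272, 205 and 205 skipping reads and 795, 683 and 728 inclusion reads. At 35°C they were 47.0%, 46.7% and 45.7%, from 515, 586 and 586 skipping reads and 1092, 1226 and 1176 inclusion reads. These were the lowest of the V4 libraries, and both kinds of reads were more numerous than at 33°C. At 37°C ψ was 66.2%, 55.3% and 61.0%, from 211, 316 and 338 skipping reads and 988, 935 and 1261 inclusion reads. The 37°C libraries were above the 35°C libraries, with the widest spread of all groups, and they overlapped the 33°C libraries.

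At V5 and 31°C the libraries gave 51.9%, 53.1% and 52.0%, from 344, 367 and 333 skipping reads and 887, 991 and 861 inclusion reads. At 33°C ψ was 23.7%, 26.8% and 25.6%, from 1184, 1030 and 1091 skipping reads and 877, 901 and 896 inclusion reads. The skipping reads exceeded the inclusion reads in each of these 3 libraries, and in none of the 31°C libraries. At 35°C ψ was 11.5%, 11.3% and 11.5%, from 2600, 2925 and 2786 skipping reads and 809, 891 and 868 inclusion reads. At 37°C ψ was 33.5%, 38.2% and 32.7%, from 1165, 895 and 951 skipping reads and 1401, 1320 and 1104 inclusion reads. No V5 library of one MDT overlapped one of another MDT in ψ, and the order from high to low was 31°C, 37°C, 33°C and 35°C.

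**Figure D2:**
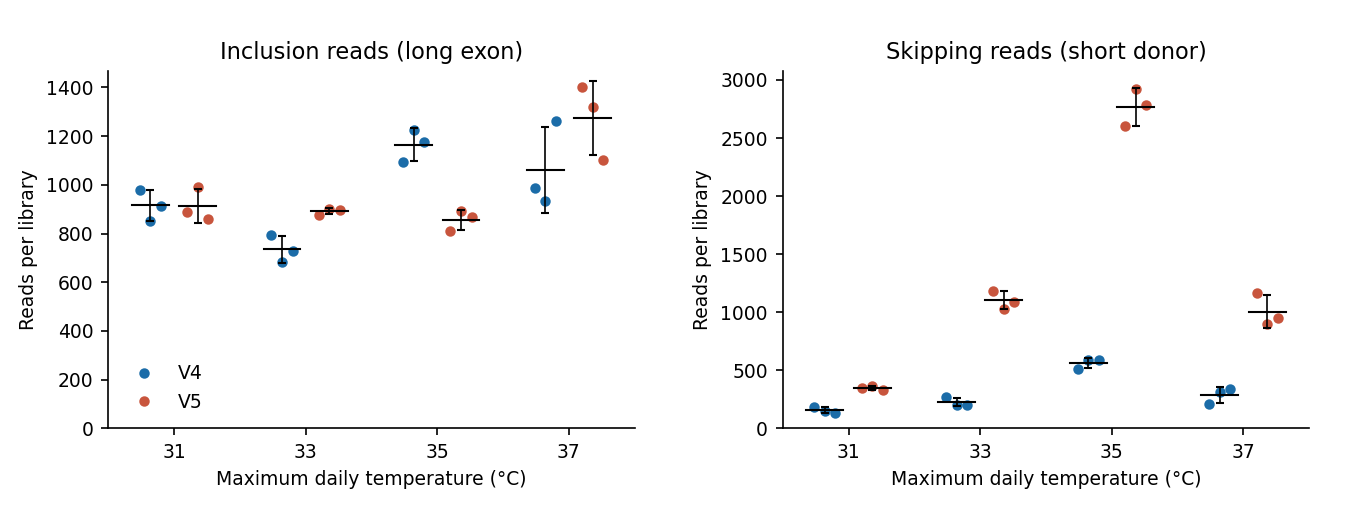
Inclusion reads (left) and skipping reads (right) of the lead event per library against MDT in °C, for V4 (blue) and V5 (red). Points are libraries, bars the mean and its SD (n = 3). Skipping reads at V5 ran from 333 to 367 at 31°C and from 2600 to 2925 at 35°C, whereas inclusion reads stayed between 683 and 1401 in all groups.

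In rising order of MDT, the V4 group means of ψ were 71.0% ± 3.08 (SD, n = 3), 57.7% ± 2.43, 46.5% ± 0.681 and 60.8% ± 5.45. Without V4 37°C replicate 3 the last mean was 60.75%. At V5 the means were 52.3% ± 0.666, 25.4% ± 1.56, 11.4% ± 0.115 and 34.8% ± 2.97 in the same order. Over all 8 groups the order from high to low was V4 31°C, V4 37°C, V4 33°C, V5 31°C, V4 35°C, V5 37°C, V5 33°C and V5 35°C, and the libraries of neighbours in this order overlapped only between V4 37°C and V4 33°C. These values chose the gene and are given as a description.

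Counted over events, 3 of the 8 SR45a events that could be compared at V4 were separated by more than 5 points of mean ψ with no overlap between the libraries in 33°C/31°C, where 12.3% of all compared events were. The same 3 events made up the count in 35°C/31°C (background 15.1%) and in 37°C/31°C (19.4%), again of 8. Without V4 37°C replicate 3 the last count was 2, as the exon's difference was then under 5 points. At V5, 3 of 9 events were so separated in 33°C/31°C (13.7%), 4 of 9 in 35°C/31°C (18.9%) and 3 of 9 in 37°C/31°C (17.6%). The 3 events in each count were the lead event, its counterpart with the donor at 143198116, and the exon at 143198022 to 143198114, all with lower ψ at the higher MDT, and all 3 have the short donor reads as their skipping reads. The fourth event at V5 in 35°C/31°C was the choice between the long donors at 143198116 and 143198113, with a higher ψ. These comparisons were used to choose the gene, and nothing is read from the counts.

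The stage comparison asked whether SR45a was spliced differently in V5 and V4 leaves kept at the same MDT. It shares its libraries with the comparisons that chose the gene. At each MDT the same 3 events passed the test with lower ψ at V5, the lead event, the donor at 143198116 and the exon at 143198022, and since they share the short donor reads they are one observation rather than 3. They were 3 of 8 events tested at 31°C, 3 of 9 at 33°C, 3 of 12 at 35°C and 3 of 9 at 37°C. Over all events tested, 0.843%, 2.48%, 3.08% and 1.08% passed at the 4 MDTs in rising order, and 0.473%, 1.43%, 1.67% and 0.821% passed with lower ψ at V5. No SR45a event passed with higher ψ at V5, as 0.37%, 1.05%, 1.41% and 0.255% of all events did.

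The V5 minus V4 difference in ψ of the lead event was -18.7 points at 31°C, with an adjusted p of 1.81e-05 in a quasi-binomial model fitted over all events. It was -32.3 points at 33°C (adjusted p = 2.17e-08), -35.0 points at 35°C (adjusted p = 7.21e-12) and -26.0 points at 37°C (adjusted p = 1.9e-06). All 3 V5 libraries were below all 3 V4 libraries at each MDT. Without V4 37°C replicate 3 the difference at 37°C was -25.95 points (adjusted p = 5.88e-06), and the same 3 events passed. With limma on log2 ratios of the reads, the lead event passed at 35°C (adjusted p = 0.00818) but not at 31°C (0.181), 33°C (0.0276) or 37°C (0.131), and that fit called 0, 2, 11 and 0 events of all genes at the 4 MDTs. Whether the difference between MDTs differed in size between the stages was not tested.

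The lead event's inclusion reads were mostly not reads across the long donor. In each library, reads that crossed from 143198113 to the next exon were between 6.91% and 20.9% of the inclusion reads, and the others lay within the extension without crossing that junction. Per position at which a read could fall, these other reads were 2.52 to 8.43 times as dense as the junction reads of the 3 long donors together. This ratio takes the 149 positions of the deposited ψ. With the 49 positions of the 50-base reads that the labels give, it was 0.83 to 2.77 and below 1 in 8 of 24 libraries, and which length applies was not settled. Neither table lists a retained intron over the whole stretch from 143197907 to 143198238, 332 bases, so transcripts that keep it and transcripts that end at a long donor are not separated by ψ.

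The share of the long donors was therefore also computed from reads across donor junctions only, a measure chosen after the data had been seen. In rising order of MDT, the long donors had 48.3% ± 6.21 (SD, n = 3), 37.8% ± 4.17, 29.9% ± 0.866 and 41.4% ± 1.32 of the donor junction reads at V4. Without replicate 3, the V4 37°C mean was 40.85%. At V5 they had 30.6% ± 2.31, 10.9% ± 0.635, 3.43% ± 0.876 and 20.5% ± 0.493. All these means were below ψ of the lead event as deposited, and the lowest group at each stage was again 35°C. How far below depends on the read length: with effective lengths for 50-base reads, ψ of the lead event was 52.92%, 38.43%, 28.41% and 41.69% at V4 and 33.41%, 13.45%, 5.586% and 19.64% at V5, the same order of groups, and it lay under the junction share at V4 35°C and V5 37°C. In V5 leaves at 35°C the long donors had 108, 118 and 69 reads against 2600, 2925 and 2786 for the short donor.

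**Figure D3:**
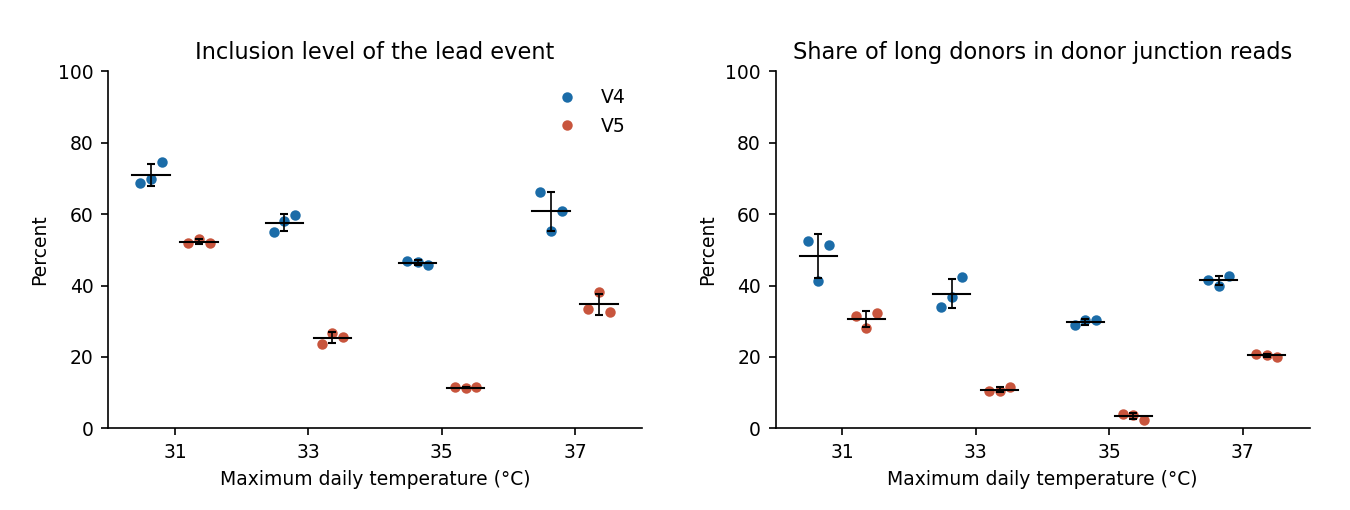
ψ of the lead event (left) and the share of the 3 long donors in donor junction reads (right), both in percent, against MDT in °C for V4 (blue) and V5 (red). Points are libraries, bars the mean and its SD (n = 3). Both measures were lowest at 35°C at each stage, with means of 11.4% and 3.43% at V5.

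Changes in a share do not say which form changed. The tables hold no gene count, so donor reads were set per 1000000 reads summed over all events of the library, an index of level that also depends on the other genes listed, and in leaf tissue a change in cell makeup and a change in RNA per cell cannot be told apart. From the lowest to the highest MDT, the short donor had 79.3 ± 8.40 (SD, n = 3), 105 ± 11.3, 229 ± 15.7 and 124 ± 15.9 reads per 1000000 at V4. Without replicate 3, the V4 37°C mean was 126.5. At V5 it had 113 ± 7.19, 347 ± 29.4, 860 ± 40.4 and 353 ± 39.1. The 35°C level was 2.88 times the 31°C level at V4 and 7.58 times at V5.

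The 3 long donors together had 74.8 ± 15.5 (SD, n = 3), 63.6 ± 4.18, 97.6 ± 10.5 and 87.8 ± 7.70 reads per 1000000 at V4, in the same order, the last being 87.1 without replicate 3. At V5 they had 50.0 ± 2.34, 42.3 ± 4.11, 30.4 ± 7.07 and 91.0 ± 10.6. The V5 long donor level was thus lowest at the MDT at which the short donor was highest, and at 37°C it was 1.82 times the 31°C level while the short donor was 3.11 times. V5 leaves had 1.43, 3.29, 3.76 and 2.84 times the short donor level of V4 leaves, in rising order of MDT. For the long donors the same ratios were 0.668, 0.665, 0.311 and 1.04. Without V4 37°C replicate 3 the ratios at 37°C were 2.79 and 1.05.

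**Figure D4:**
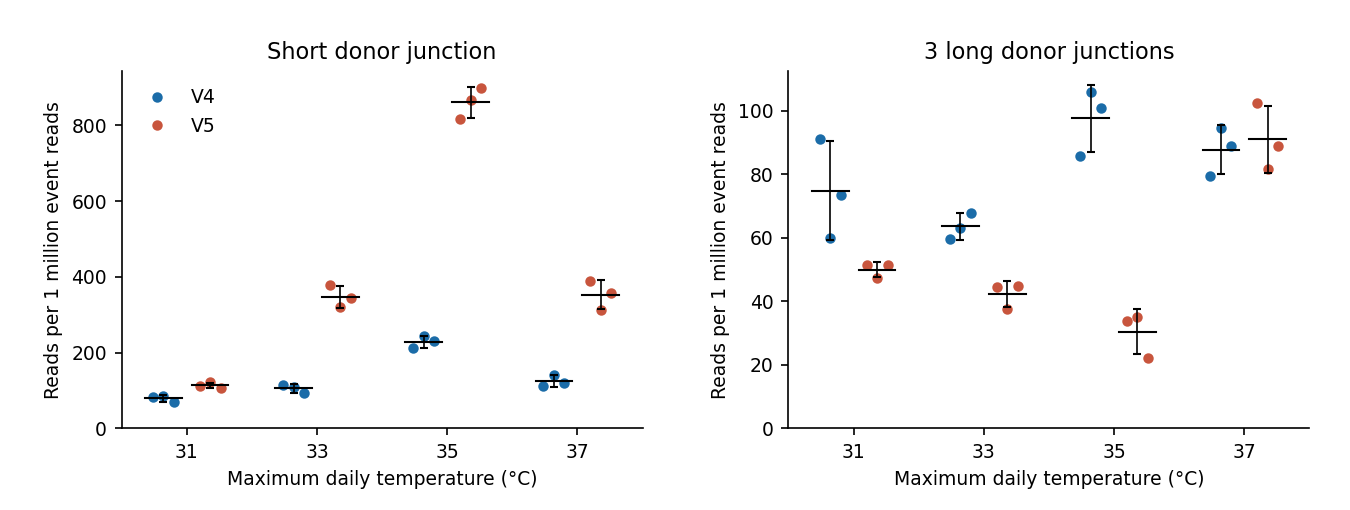
Junction reads of the short donor (left) and of the 3 long donors together (right) per 1000000 reads of all events, against MDT in °C for V4 (blue) and V5 (red). Points are libraries, bars the mean and its SD (n = 3), and the axes differ in range. The V5 short donor mean was 113 at 31°C and 860 at 35°C, and the V5 long donor mean was 30.4 at 35°C.

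Among the long donors, 143198113 carried most junction reads, from 60 to 287 per library. The donor at 143198116, 3 bases downstream, had 4 to 18 reads and the one at 143198114 had 1 to 10. Against 143198113, the donor at 143198116 had ψ at V4 of 6.77% ± 2.12 (SD, n = 3), 9.67% ± 0.453 (n = 2), 4.67% ± 2.58 and 4.60% ± 1.21 in rising order of MDT. The n = 2 mean leaves out V4 33°C replicate 1, which listed these donors for the exon from 143198094, with ψ of 7.33%. At V5 the donor at 143198116 had 5.83% ± 2.15, 8.40% ± 1.25, 12.5% ± 3.23 and 4.57% ± 0.907. At V5 35°C it had a mean of 12.3 reads against 80.3 for 143198113, and at V5 31°C 9.00 against 141. The stage difference at 35°C, 7.87 points, had an adjusted p of 0.0611 in the quasi-binomial model and did not pass. A further donor at 143197883, 23 bases upstream of the short donor, had 1 to 16 reads in the 15 libraries in which its event was listed.

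The ES exon, 143198022 to 143198114, is 93 bases long, lies within the extension and ends 1 base beyond it. By its effective lengths, its inclusion reads may lie within the exon as well as join it to the short donor or to 143198239. The junction from 143198114 to 143198239 had only 1 to 10 reads per library, against 44 to 136 inclusion reads. Thus ψ does not separate an exon spliced on both sides from other reads of the extension. ψ was 21.8%, 24.4% and 20.5% in the V4 libraries at 31°C and 10.7%, 13.5% and 17.8% at 33°C. It was 10.1%, 8.5% and 7.8% at 35°C and 19.1%, 16.0% and 14.6% at 37°C. The 31°C libraries were above all others of V4, and those of 33°C overlapped those of 37°C.

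At V5 the exon had ψ of 11.6%, 13.4% and 11.9% at 31°C and 3.8%, 4.7% and 4.7% at 33°C. At 35°C it was 1.1%, 1.2% and 1.0%, and at 37°C it was 6.7%, 7.9% and 7.0%. No 2 MDTs overlapped at V5. Its inclusion reads varied less than this, from 44 to 136 over the V5 libraries, and the skipping reads are those of the short donor. The V5 minus V4 difference was -9.93 points at 31°C in the quasi-binomial model (adjusted p = 0.00703), -9.60 points at 33°C (0.000645), -7.70 points at 35°C (5.26e-07) and -9.37 points at 37°C (0.000207). Without V4 37°C replicate 3 the last was -10.35 points (adjusted p = 0.000182). With limma on log2 ratios the exon passed at none of the MDTs, with adjusted p of 0.294, 0.0622, 0.0153 and 0.237 in rising order. The 31°C call was lost without V4 31°C replicate 1 (adjusted p = 0.0249) or replicate 2 (0.0324), and without V5 31°C replicate 1 (0.0179), 2 (0.0134) or 3 (0.0139).

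**Figure D5:**
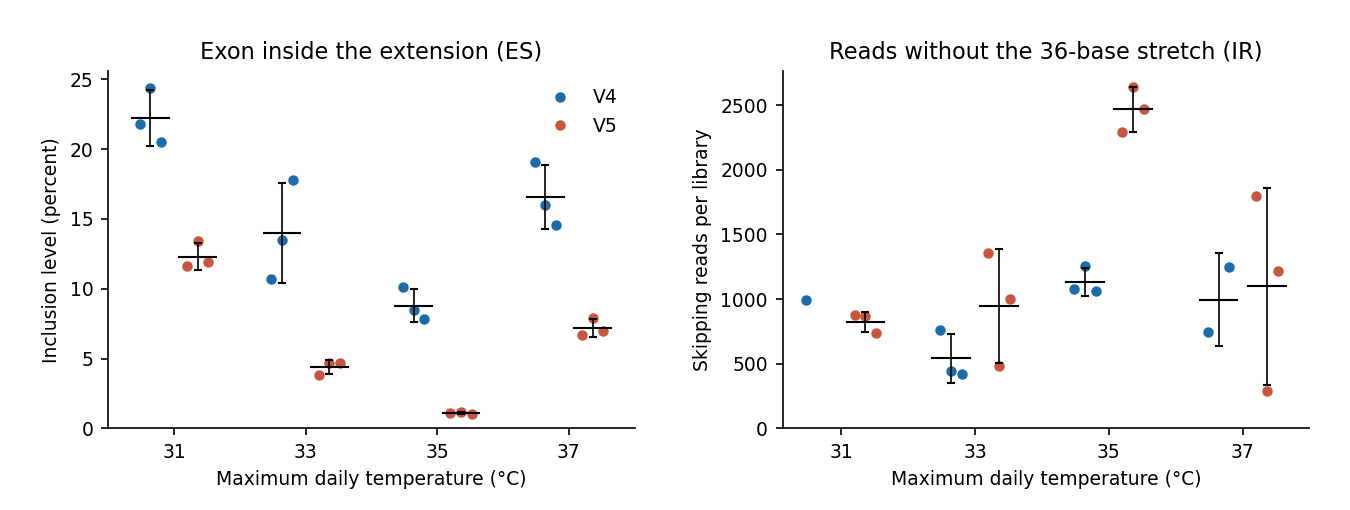
ψ of the ES exon in percent (left) and skipping reads of the 36-base IR stretch per library (right) against MDT in °C for V4 (blue) and V5 (red). Points are libraries, bars the mean and its SD where a group had at least 2 listed values. The V5 exon mean was 12.3% at 31°C and 1.10% at 35°C, and the skipping reads of the IR stretch ran from 287 to 1796 among the V5 37°C replicates.

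Upstream, the exon that ends at 143197405 began at 143197334, 143197346 or 143197352 after the exon ending at 143197238, and these 3 acceptors, the others 12 and 18 bases downstream of the first, differ by multiples of 3. The middle acceptor took most junction reads, between 51.4% and 73.9% in every library. The first acceptor took 2.50% to 14.4% of them in V4 libraries and 0.617% to 3.31% in V5 libraries, from 1 to 21 reads. Its ψ against the middle acceptor was 8.83% ± 1.10 (SD, n = 3) at V4 31°C and 2.43% ± 1.82 at V5 31°C. The stage difference had the same sign at all MDTs, between -3.60 and -7.80 points, but its adjusted p was 0.0612 to 0.357 in the quasi-binomial model and it did not pass. The first against the last acceptor had differences of -15.6 to -11.3 points with adjusted p of 0.0654 to 0.319, which did not pass. Most inclusion reads of that event were not reads of the first acceptor, with means of 21.0 against 6.33 at V4 31°C. Its ψ is thus not the use of the first acceptor. The middle against the last acceptor showed no stage difference past the test either, with differences between -1.70 and 3.60 points.

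The acceptor junctions give another view of the level. Their sum per 1000000 event reads at 35°C was 1.27 times that at 31°C in V4 leaves and 3.01 times in V5 leaves, compared with 2.12 and 5.45 times for the sum of the short and long donors. The 2 indices gave the same order at V5, with 35°C first, but not at V4, where the acceptor sum at 37°C was 1.36 times that at 31°C, or 1.34 times without replicate 3.

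Of the 2 IR stretches listed in both tables, 143198729 to 143198824 (96 bases) was almost wholly included. Its ψ was 99.2% to 99.9% in the 10 libraries that listed it, from 1 to 13 skipping reads. The other, 143198494 to 143198529 (36 bases), was almost wholly absent from reads, with ψ of 0.5% to 1.6% in 9 V4 libraries and 1.7% to 12.7% in the 12 V5 libraries. In W22 reads aligned to B73, a spliced intron and a stretch that W22 lacks cannot be told apart from these counts. At V5 35°C its skipping reads numbered 2289, 2642 and 2470, close to those of the short donor. At V5 31°C they numbered 874, 868 and 737, against 344, 367 and 333 for the short donor. Replicates differed widely in some other groups, with 1796, 287 and 1218 skipping reads at V5 37°C and 1360, 479 and 1002 at V5 33°C. A neighbouring 37-base stretch, 143198491 to 143198527, was listed only in V5 33°C replicate 3 and V5 37°C replicate 2, with 3 and 2 skipping reads. The stage difference of the 36-base stretch was 1.57 points at 35°C with an adjusted p of 0.00766 in the quasi-binomial model, under the 5 points asked of a call.

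The remaining events were sparse. At V5, 8 events were listed with a value in 1 library only, V5 35°C replicate 2: 5 ES events with ψ of 99.9% to 100% and 3 MXE events with ψ of 23.6% to 63.8%. The 3 MXE events share 813 inclusion reads. At V4, 1 further event with a value in 1 library only, V4 33°C replicate 1, set 143198116 against 143198113 for an exon listed from another start. Every value in the tables comes from a library with at least 1 read of each form. A library with reads of only 1 form would have no value, so a missing value can also stand for a ψ of 0 or 100%.

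Other splicing regulators that the study chose on these samples, SRP, SCL33, SR34 and SPFcc1-like, gave 23 events that could be compared in V4 35°C/31°C, of which 3 were separated with higher ψ at 35°C (6.27% of all events) and 4 with lower ψ (8.86%). At V5, 24 could be compared in 35°C/31°C, with 6 higher (7.83%) and 11 lower (11.1%). In the stage test 24 of their events were tested at 31°C, 33°C and 35°C each and 23 at 37°C, and 1, 7, 8 and 0 passed, where 0.843%, 2.48%, 3.08% and 1.08% of all events did. At 33°C, 5 of 10 SR34, 1 of 2 SRP and 1 of 10 SPFcc1-like events passed, all with lower ψ at V5. At 35°C, 1 of 10 SR34 events passed with higher ψ at V5 and 5 with lower, and 2 of 10 SPFcc1-like events passed with lower ψ. At 31°C, 1 of 2 SRP events passed, with lower ψ at V5. The ES event with the most reads of SRP had ψ of 21.8% ± 4.18 (SD, n = 3) at V4 31°C, 3.27% ± 1.37 at V4 35°C and 2.83% ± 1.19 at V4 37°C. At V5 it had 7.87% ± 1.59, 0.933% ± 0.208 and 1.70% ± 0.458. In rising order of MDT, the most-read V4 event of SCL33 had mean ψ of 8.87%, 4.75%, 4.33% and 3.33%. That of SR34 had 65.0%, 65.7%, 59.3% and 55.8%, and that of SPFcc1-like had 53.5%, 63.6%, 43.5% and 39.2%. The most-read V5 event of SPFcc1-like had 41.1%, 23.2%, 14.3% and 33.4%. The 3 other genes of the SR45a clade named in the study and waxy had no listed event, and HSFTF9, a heat shock factor gene, had no event past the stage test.

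Patterns like that of the lead event were ranked by Pearson's r of ψ over the 24 libraries, among 3038 events of 1929 other genes with a value in every library. The median r was 0.071, and 2 events, 0.0658% of those compared, had r above 0.9. The points share libraries and fall into MDT and stage groups, so r is a description. The highest was an IR event of Zm00001d020438 on chromosome 7 (r = 0.936, Spearman's rho = 0.931). In rising order of MDT, its mean ψ was 13.5%, 15.1%, 10.0% and 13.5% at V4 and 10.4%, 4.77%, 3.23% and 8.60% at V5. Within V4 alone r was 0.614, and within V5 it was 0.960.

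The next was an A5SS event of Zm00001d037625 on chromosome 6 (r = 0.905, rho = 0.898), with r of 0.639 within V4 and 0.881 within V5. In rising order of MDT, its mean ψ was 63.2%, 65.3%, 52.6% and 63.2% at V4 and 39.6%, 27.8%, 19.7% and 37.2% at V5. Unlike the lead event, neither this event nor that of Zm00001d020438 had a lower mean at V4 33°C or 37°C than at V4 31°C. The lowest r was -0.895 (rho = -0.926), for an ES event of Zm00001d050844 on chromosome 4 whose mean ψ was 57.2% at V4 31°C and 81.6% at V5 35°C. An A5SS event of Zm00001d013195 on chromosome 5 followed with r = -0.862 (rho = -0.90). Without the 2 libraries farthest from the median of the lead event, the r of these 4 events was 0.916, 0.874, -0.892 and -0.882. The files do not pair these identifiers with gene names.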

How the data were processed

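Leaf RNA-seq of W22 maize was processed by the authors, whose submission notes name HISAT2 2.0.4 and Bowtie2 2.2.5. The deposited tables, 1 per stage, come from rMATS (v3.2.5 per the methods) and list events on B73 RefGen_V4. The counts deposited by the authors are reads of the inclusion and of the skipping form, not normalized, and ψ is deposited as a fraction. The deposited read counts and fractions fit effective lengths of 149 positions for the skipping form and 149 plus the alternative length for the inclusion form in all 68272 V4 and 144171 V5 values checked. That matches reads of 150 bases, while the labels give single-end reads of 50 bases, and which applies was not settled. By name, 5 columns of the V4 table matched no single library and were not used. For V4 31°C, replicates 2 and 3, the inclusion reads were worked back from ψ, skipping reads and these lengths. For V4 33°C, ψ was calculated from reads and lengths. The tables also hold the authors' tests, not used here.

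Shared events averaging 10 reads or more, with values in 2 of 3 libraries of each group, were tested for V5 against V4 at each MDT, 6 libraries per test, in a quasi-binomial model with an F test, its dispersion moderated with limma 3.58.1 and not below 1 (R 4.3.3). This stood in for the study's likelihood-ratio test. p-values were adjusted by Benjamini-Hochberg within each event type over all genes. A call needed an adjusted p of at most 0.01 and over 5 points of mean ψ. On simulated data the model recovered 69, 51, 76 and 70 of 200 changed events at 31°C, 33°C, 35°C and 37°C and called 0 unchanged events. That simulation gave all libraries the same spread, 2 times the binomial variance, not the spread measured between these replicates. Skipping reads of the replicate pairs varied by at least 2.15 times the variance of counting, so the 0 does not give the rate of false calls here. Alternatives were edgeR 4.0.16, limma on log2 ratios with 0.5 added to the reads, a replicate block, other filters and thresholds, shared spread, raw shares and leaving out each library. Levels are reads per 1000000 event reads, since no gene counts were used.

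Members, lists and tests were chosen with earlier results of these data known. Named events followed a rule: the lead event had the most reads among events seen in all libraries of both tables, events averaging 100 reads or more were described by library, and like patterns were taken by the highest and lowest r among events averaging 20 reads or more, named here for 2 on each side. Coordinates are 1-based.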

Additional observations from a re-analysis of the deposited data

Results flagged for a closer look

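ψ of the donor at 143198114 against that at 143198113, 1 base apart, differed in opposite directions at the 2 stages between 31°C and 35°C. Mean ψ of 143198114 at 35°C minus that at 31°C was -1.8 points at V4 and 3.87 points at V5, and at each stage the libraries of the 2 MDTs did not overlap. The nearest libraries of the 2 MDTs had 3.0% and 2.9% at V4 and 4.1% and 4.7% at V5, and the share of all events with such a pattern is not given here. Whether the change differed between the stages was not tested. At 35°C the V5 minus V4 difference was 4.17 points (adjusted p = 0.0907 in the quasi-binomial model) and did not pass. The inclusion form had 1 to 10 reads per library, and its means lay between 3.67 and 6 reads in these groups. The skipping form, 143198113, had mean reads of 135 at V4 31°C and 224 at V4 35°C. At V5 its means were 141 at 31°C and 80.3 at 35°C. ψ thus also moved with the reads of 143198113, and a change in use of 143198114 itself was not tested.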

How the results depend on the processing

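The 3 SR45a calls per MDT in the stage comparison held with edgeR, without a filter, with at least 20 reads, with a value in all 6 libraries, at an FDR of 0.05, with one adjustment over all types and with raw shares. limma on log2 ratios called 0 at 31°C, 33°C and 37°C and 2 at 35°C, with lead event differences of -18.70, -32.31 and -26.03 points at 31°C, 33°C and 37°C no longer past the threshold; the cause was not tested. Shared spread over the 8 groups added 143198116 against 143198113 at 35°C (adjusted p = 0.00819). Leaving out 1 library gave 2 to 3 calls at 31°C, 3 to 4 at 33°C, 3 at 35°C and 3 at 37°C, and lead event differences of -19.92 to -16.97, -33.64 to -31.26, -35.42 to -34.77 and -28.80 to -23.35 points. The fourth call at 33°C, without V5 33°C replicate 1, was the 36-base IR stretch (adjusted p = 0.00304).

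Over all genes the calls at 31°C, 33°C, 35°C and 37°C were 57, 172, 225 and 76, against 86, 292, 390 at the first 3 MDTs with a value in all 6 libraries, 145, 405, 517 and 156 at an FDR of 0.05, and 288 and 364 at 33°C and 35°C with shared spread. Leaving out 1 library gave 28 to 47, 128 to 144, 150 to 205 and 42 to 66.

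Replicate numbers showed at most a weak pairing of the libraries. Deviations of same-numbered V4 and V5 libraries correlated at -0.029 to 0.058, with 0 of 12 pairs over 0.1. Of the 12 V4 libraries, 6 were closest to their own number. Whether this differed from no pairing was not tested. With the replicate block SR45a had 3, 3, 3 and 4 calls, the fourth being the 36-base IR stretch at 37°C (adjusted p = 0.0055), and all genes had 260 at 33°C and 120 at 35°C.

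The level of the lead event at V5 35°C was 2.75 times that at 31°C per event reads, 2.85 times by size factors and 2.90 times by skipping reads. At V4 33°C it was 0.822, 0.959 and 0.961 times. ψ without effective lengths was higher, and the share from donor junctions lower, than ψ of the lead event by more than 1 SD in all 8 groups, and effective lengths for 50-base reads, added after seeing the data, also lowered it by more than 1 SD in all 8. Among alternatives chosen after seeing the data, leaving out 1 library gave 3 to 4 separated SR45a events in V4 33°C/31°C and V4 35°C/31°C, 3 in V5 33°C/31°C, 4 in V5 35°C/31°C and 2 to 4 in both 37°C/31°C comparisons, with 2 in V4 37°C/31°C without V4 37°C replicate 3 and in V5 37°C/31°C without V5 31°C replicate 2 or V5 37°C replicate 3. Depth limits the rare donors and acceptors, which had 1 to 21 reads per library.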
